A study of Rattus norvegicus with 10 samples.

Results

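One day of hindlimb suspension (HS1) was compared with no suspension (Control) in cultured rat soleus myoblasts, with 2 RNA-seq libraries in each group. These 4 libraries were chosen by their labels out of the 10 in the series, and the other 6 came from rats suspended for 3, 7 or 14 days (HS3, HS7 and HS14). The donors were 3-month-old male Wistar rats without genetic modification. Controls stayed in ordinary cages, while suspended rats had their hindlimbs kept off the floor, so that the soleus carried no weight. The cells were released from the soleus of both hindlimbs with collagenase and grown as primary cultures on Geltrex in medium rich in serum. A pre-plating step, in which cells that adhere quickly are discarded, was applied before a further day of growth. All values therefore describe cells that had spent days in culture after suspension had ended. Whether a group's libraries stem from separate rats or cultures is not given in the sources used here, so the p-values measure only the spread between these libraries, which may be technical.

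The soleus is a postural muscle made mostly of slow fibres, and it loses mass quickly when it is unloaded. Its stem cells, the satellite cells, give rise to myoblasts that divide, switch on myogenin and fuse into myotubes. Around them lie fibro-adipogenic progenitors (FAPs), which carry the receptor PDGFRA and are known as the main producers of collagen, proteoglycans and elastic fibres between the fibres. Pre-plating is meant to remove these cells from a myoblast culture. Pericytes, endothelial cells, Schwann cells and macrophages also come out of a digested muscle.

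The 4 libraries held between 22304805 and 26233681 counts, and 3 counts, the smallest level taken as detectable, stood for between 0.114 and 0.135 CPM (counts scaled to the size of the library). Of 32622 genes in the table, 13013 passed the expression filter. The libraries of a group differed by a biological coefficient of variation of 5.42%, and by more than counting error in both groups (chi-square per degree of freedom 3.52 in Control and 5.99 in HS1), so none was a duplicate. A gene symbol was at hand for 729 of the genes tested, each of them a gene that the study itself had called at one time point or another. Of these, 605 owed their symbol to a comparison other than HS1 against Control as well. Counts of named genes in any group are thus counts among genes already selected for change, partly on these libraries. The myoblast label could be checked through *Myog*, *Mymk* and *Mymx*, all detected in every library, while *Pax7*, *Myf5* and *Des* had no symbol here and were not checked. One value bears on the description of the donors as male. *Usp9y*, a gene of the Y chromosome, was counted 44 and 48 times in Control and 0 and 2 times in HS1, 132 and 170 times in HS3 libraries, 44 and 28 times at HS7 and 2 times in each HS14 library. It was the only Y-linked gene examined, and what lies behind its counts was not tested.

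The HS1 profile was lopsided towards falls, in number and more so in size. An adjusted p under 0.01 in edgeR's quasi-likelihood test, called passing from here on, was reached by 1365 genes that fell (10.5% of those tested) and 830 that rose (6.38%). The falls were larger. Among genes that fell, 494 did so by more than 1 log2 unit, 148 by more than 2 and 31 by more than 3, with a median of -0.71. Among genes that rose, 37 exceeded 1, 2 exceeded 2 and 0 exceeded 3, with a median of 0.36. Over all genes tested the median log2 fold change was 0.0053, close to 0. A gene was called differentially expressed (DEG) when it passed and changed by more than 1.5 log2 units, which gave 284 downregulated (2.18%) and 12 upregulated DEGs (0.0922%).

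The downregulated DEGs included abundant transcripts and the upregulated ones did not. Of the former, 103 had a mean of at least 3 log2 CPM over the 4 libraries, and of the latter 0 did. The 284 downregulated DEGs together took 1.94% and 2.02% of all counts in the Control libraries and 0.549% and 0.563% in the HS1 libraries. *Col1a1* alone accounted for 0.658% and 0.704% in Control and for 0.222% and 0.224% in HS1. The 12 upregulated DEGs made up 0.00177% and 0.00186% of counts in Control and 0.00621% and 0.00626% in HS1. Just inside the fold threshold lay *Ece1* and *Eng*, each at -1.52, and just outside it *Pcdh7* (-1.49), *Tmod1* (-1.48) and *Apba2* (1.49).

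**Figure D1:**
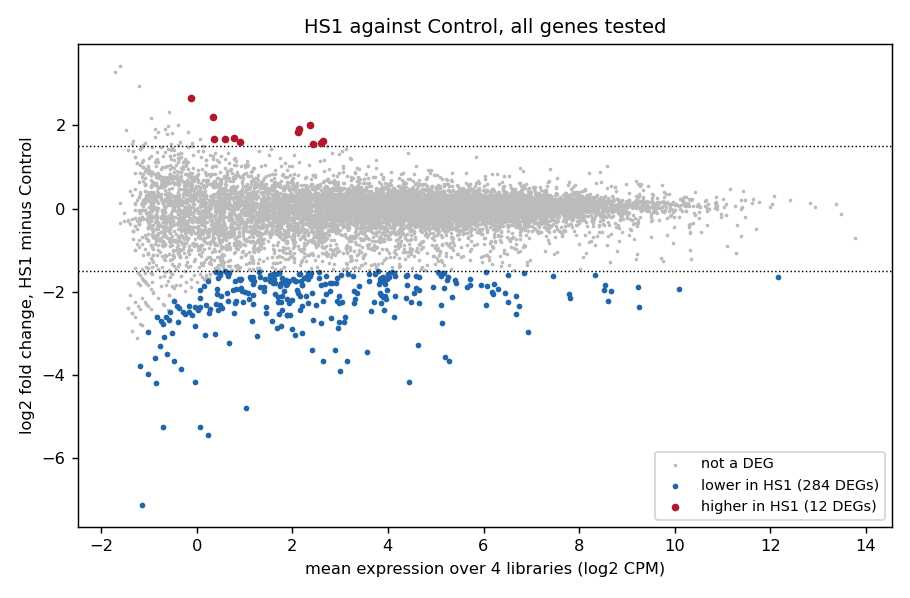
Log2 fold change of HS1 against Control (vertical axis) plotted against mean expression in log2 CPM over the 4 libraries (horizontal axis), 1 point per gene tested. Dotted lines mark 1.5 log2 units; the 284 downregulated DEGs (blue) reach mean levels far above those of the 12 upregulated DEGs (red), which all lie below 3 log2 CPM.

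Genes of the extracellular matrix fell together. Over collagens, matrix glycoproteins, proteoglycans with hyaluronan enzymes, and matrix enzymes, 80 genes with a symbol were tested, of which 66 fell, 2 rose and 57 were downregulated DEGs. For comparison, 50.2% of all genes with a symbol fell and 7% rose. Of the 80 genes, 49 owed their symbol to another comparison as well, and 35 of those 49 fell, while 2 rose, against 40.7% and 7.77% of all genes of that kind. The 10 most abundant downregulated DEGs with a symbol were matrix genes except for *Gpx3* and *Thy1*. These are RNA levels of mixed cultures, in which fewer cells of a type and less RNA per cell cannot be told apart.

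Among 13 collagen genes, 8 fell, 1 rose and 4 did not pass, with a median log2 fold change of -1.64. That count is not far above the 50.2% of all genes with a symbol that fell. Of the 8 collagens that owed their symbol to another comparison as well, 3 fell and 1 rose, with a median of -0.95. For all genes of that kind the shares were 40.7% and 7.77%. *Col1a1* (ENSRNOG00000003897), the main chain of fibrillar type I collagen, stood at 6647 and 7117 CPM in Control and at 2208 CPM in each HS1 library. The HS1 libraries lay far below both Control libraries (log2 fold change -1.64, standard error 0.046, edgeR adjusted p = 1.79e-17). The chains of type VI collagen, which forms beaded filaments around muscle fibres, moved in step. *Col6a1* fell by 1.95 on the log2 scale, *Col6a3* by 1.88 and *Col6a2* by 1.84. *Col14a1*, a collagen on fibril surfaces, fell from 14.4 and 12.1 to 1.83 and 2.17 CPM. The one collagen that rose was *Col4a5*, a basement membrane chain, with 43.4 and 39.7 CPM in Control against 59.4 and 54.1 CPM in HS1 (log2 fold change 0.45, edgeR adjusted p = 0.000179).

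The glycoproteins of elastic fibres and the pericellular matrix fell more uniformly, 29 of 32 genes and none rising, with a median of -1.68. *Fbn1*, which encodes fibrillin-1, the backbone of microfibrils, had 1006 and 1043 CPM in Control and 204 and 191 CPM in HS1 (log2 fold change -2.37, standard error 0.052, edgeR adjusted p = 1.31e-18). Its relative *Fbn2* fell by 2.31, and the microfibril protein *Mfap5* by 2.75. *Thbs4*, a thrombospondin of tendon and muscle matrix, went from 70.6 and 72.5 CPM to 5.48 and 5.84 CPM, one of the largest falls at this abundance (-3.66, standard error 0.10). *Thbs2* fell by 2.22, *Tgfbi*, an adhesive protein induced by TGF-beta, by 2.98, and *Lama4*, a laminin chain, by 2.14. *Postn*, which encodes periostin, fell by only 1.02, and *Ltbp2*, at 1148 and 1180 CPM in Control, by only 0.43.

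Small leucine-rich proteoglycans and the enzymes that make hyaluronan followed the same course. Of 17 such genes, 16 fell and 1 rose (median -2.04). *Bgn* fell from 1691 and 1759 CPM to 434 and 467 CPM, *Dcn* from 168 and 162 CPM to 37.8 and 38.6 CPM, and *Lum* from 7.32 and 6.78 CPM to 0.581 and 1.15 CPM. *Has2*, a hyaluronan synthase, fell by 2.04 and *Prg4*, the lubricant lubricin, by 2.53. *Has1* had 112 and 75 counts in Control and 0 and 6 in HS1, and its fall did not pass with DESeq2 (adjusted p = 0.0383). *Hpse*, which encodes the heparan sulfate cleaving enzyme heparanase, was the exception, rising by 0.70 (edgeR adjusted p = 1.17e-06).

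Of 18 matrix enzymes, 13 fell, all as DEGs, none rose and 5 did not pass. *Adamtsl3*, an ADAMTS-like glycoprotein, had 42.2 and 45.9 CPM in Control and 4.07 and 5.09 CPM in HS1, a change of -3.27. *Ctsk*, the collagen-degrading cathepsin K, fell by 2.24, *Adamts2*, which trims procollagen, by 2.03, and the cross-linking oxidase *Loxl3* by 1.88. *Mmp9*, a gelatinase, did not pass (-0.27, edgeR adjusted p = 0.148). *Mmp12*, the macrophage elastase, had 0.241 and 0.154 CPM in Control and 1.37 and 0.619 CPM in HS1. Its difference of 2.32 missed the threshold in edgeR (adjusted p = 0.0106), but passed without HS1 replicate 2 (adjusted p = 0.00385) and in the joint fit of all 10 libraries (adjusted p = 0.0048).

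**Figure D2:**
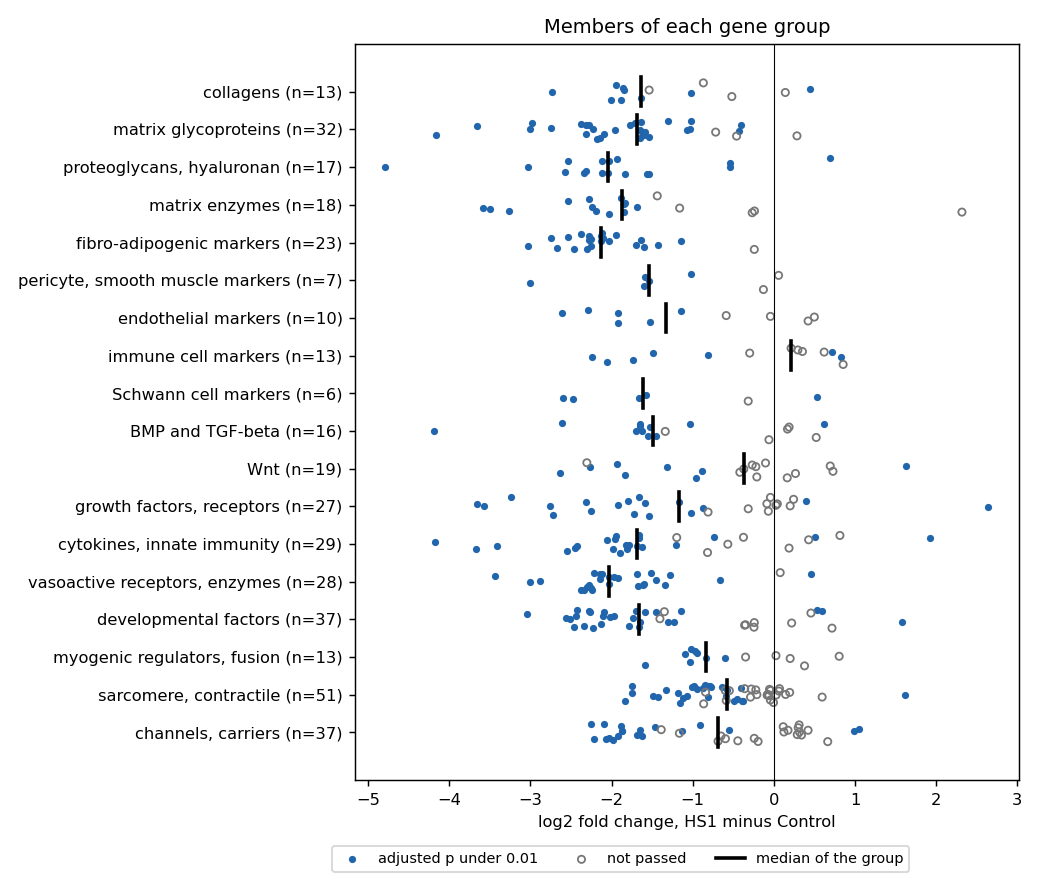
Log2 fold change of HS1 against Control for each tested member of 18 gene groups; filled points passed an adjusted p under 0.01, open points did not, and the bar is the group's median. Medians lie between -2.13 and -1.33 for matrix, stromal, vascular and Schwann cell groups, at -0.57 for sarcomere genes and at 0.21 for immune cell markers.

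Of the genes with the largest falls at 3 log2 CPM or above, several lay outside the matrix. *Vegfd*, *Ramp3* and *Fgf10* are described with their groups below. *Il1rn* (ENSRNOG00000005871), the natural antagonist of interleukin 1, had 40.3 and 40.8 CPM in Control and 2.16 and 2.35 CPM in HS1 (-4.17, standard error 0.13, edgeR adjusted p = 2.77e-16). *Tspan11*, a tetraspanin, fell from 15.5 and 13.6 CPM to 1.33 and 0.575 CPM. *Gas1*, a membrane protein linked to growth arrest, fell by 3.65. *Gpx3*, the secreted glutathione peroxidase and one of the most abundant downregulated DEGs, fell by 1.97 from 638 and 646 CPM. Each of the 20 genes shown in the plot of falling genes had both HS1 libraries below both Control libraries, which was also true in one direction or the other of 61.6% of all genes tested.

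**Figure D3:**
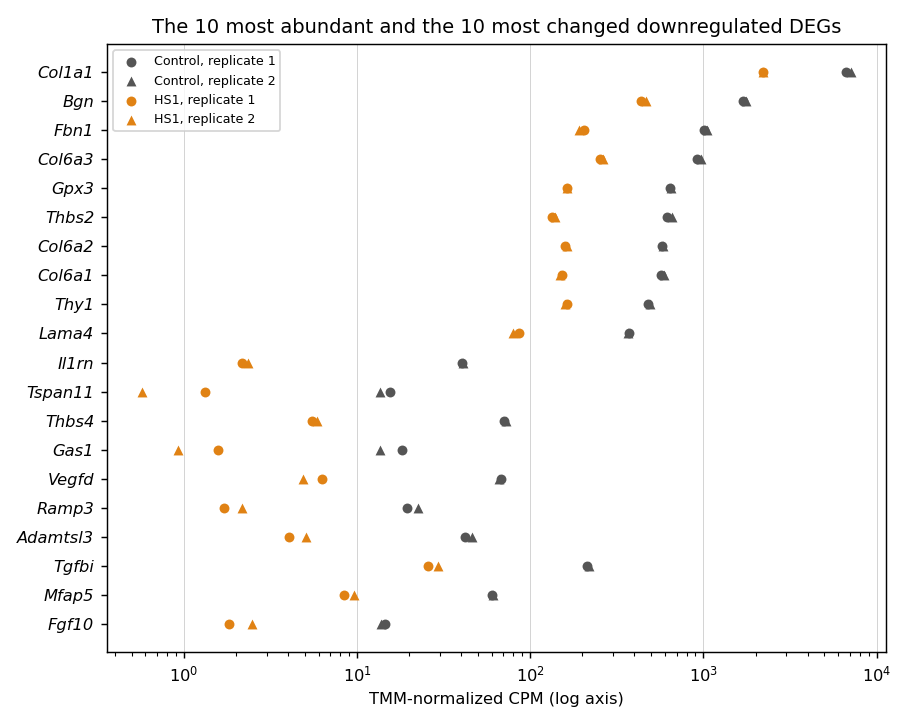
TMM-normalized CPM on a log axis for the 10 most abundant downregulated DEGs with a symbol (top) and the 10 with the largest change at a mean of at least 3 log2 CPM (bottom). Grey marks are Control and orange marks HS1, with shape giving the replicate. The groups are apart in every row, which was a condition of choice for the 10 at the bottom.

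The promoters of a few of these genes are printed so that the short motifs counted over all falling genes can be seen in place, in genes that changed most, were abundant or rose. Each is the 250 bases upstream of the start site in RefSeq (assembly GRCr8, plus strand in each case), written 5′ to 3′, with TATAAA or TGANTCA on either strand in capitals. *Il1rn* lies at chr3:27520072-27520321 with a TATA-type match close to its start. *Col6a1* lies at chr20:11905440-11905689 and has a TGANTCA match, the site class read by AP-1 factors. *Lama4* lies at chr20:43946648-43946897 and has a TATAAA match far from its start, and *Ass1*, a gene that rose, lies at chr3:35149480-35149729.
Il1rn: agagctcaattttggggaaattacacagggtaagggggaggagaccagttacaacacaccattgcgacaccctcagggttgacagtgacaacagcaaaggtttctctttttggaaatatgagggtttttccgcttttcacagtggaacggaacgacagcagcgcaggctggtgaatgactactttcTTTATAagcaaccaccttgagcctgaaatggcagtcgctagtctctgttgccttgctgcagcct
Col6a1: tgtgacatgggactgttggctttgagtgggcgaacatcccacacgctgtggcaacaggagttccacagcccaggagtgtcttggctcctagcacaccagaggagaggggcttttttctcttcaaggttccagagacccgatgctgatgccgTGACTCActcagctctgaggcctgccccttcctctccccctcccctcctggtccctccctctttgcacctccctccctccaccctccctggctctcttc
Lama4: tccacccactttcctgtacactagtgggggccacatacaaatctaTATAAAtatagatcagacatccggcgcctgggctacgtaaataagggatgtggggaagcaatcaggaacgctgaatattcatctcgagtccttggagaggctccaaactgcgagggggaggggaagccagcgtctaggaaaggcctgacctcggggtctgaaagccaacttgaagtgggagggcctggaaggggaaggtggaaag
Ass1: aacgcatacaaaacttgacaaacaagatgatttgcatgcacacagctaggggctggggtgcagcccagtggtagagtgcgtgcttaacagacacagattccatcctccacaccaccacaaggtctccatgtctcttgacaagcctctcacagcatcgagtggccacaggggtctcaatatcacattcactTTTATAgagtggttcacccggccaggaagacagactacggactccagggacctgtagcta

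RefSeq gave a promoter to 186 of the 253 downregulated DEGs with a symbol. TATAAA was found on one strand or the other in 10.2% of them, against 13.1% of 27457 promoters of the same length. TGANTCA was found in 9.68% against 6.36%, the E-box CAGCTG in 16.7% against 11.9%, CATTCC, the core read by TEAD factors, in 13.4% against 11.8%, and the GC box GGGCGG in 43.5% against 32.4%. The genes with a symbol that were tested gave 547 promoters, a closer comparison, though it contains the 186 of the falling genes and so narrows any difference. Among these, TATAAA (12.8%), CAGCTG (19.2%) and GGGCGG (47.2%) were more frequent than in the falling genes, and TGANTCA (7.5%) and CATTCC (12.8%) less frequent. These shares are descriptions and were not tested.

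Markers of FAPs were the group with the lowest median, at -2.13. Of 23 tested, 22 fell and none rose, and summed over the list they went from 9214 and 9737 CPM in Control to 2820 and 2812 CPM in HS1. *Pdgfra*, the defining receptor, fell from 149 and 151 CPM to 30.9 and 32.0 CPM (-2.25, edgeR adjusted p = 5.23e-17). The transcription factors *Twist2* (-2.46) and *Meox2* (-2.28), the peptidase *Mme* (-2.31), the cadherin *Cdh11* (-2.13) and *Thy1* (-1.59) fell with it, while *Osr1* stood at 6.59 and 8.86 CPM in Control and 7.31 and 5.75 CPM in HS1 and did not pass. No tested marker was at 0 in a Control library. Because 7 of the 23 are matrix genes counted above, the 16 others were also summed, and they went from 1150 and 1166 CPM to 330 and 332 CPM, with 15 falling. How far a smaller FAP share accounts for the matrix falls was not tested.

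Several pericyte and endothelial markers were lower as well, in shares to be read against the 50.2% of all genes with a symbol that fell. Of 7 pericyte and smooth muscle markers, 5 fell, 3 with the replicate block or without Control replicate 1. *Pdgfrb*, a receptor of pericytes and fibroblasts, fell from 173 and 167 CPM to 58.8 and 58.0 CPM, whereas *Myocd* (-0.13) and *Lmod1* (0.06), of smooth muscle, did not pass and *Rgs5* had 0 counts in both Control libraries. Of 10 endothelial markers, 6 fell and none rose, among them *Acvrl1* (-2.61), *Aqp1* (-1.92) and *Eng* (-1.52), all of which other cells also express. The markers that define endothelium were at or near the floor of 3 counts, or low. *Cdh5* had 6 and 4 counts in Control and 4 and 2 in HS1, and *Emcn* 0 and 2 counts in Control and 0 in both HS1 libraries. *Kdr*, the main receptor of VEGF-A, fell from 1.77 and 3.47 CPM to 0.581 and 0.796 CPM, while *Flt4*, a receptor of lymphatic endothelium, stood at 7.03 and 6.70 CPM in Control and 6.48 and 6.86 CPM in HS1 and did not pass. The summed endothelial list stood at 326 and 345 CPM in Control and 115 CPM in each HS1 library, and its part in the other falls was not tested.

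Immune markers were mixed. Their counts, and those of Schwann cell markers, have the same background of 50.2% falling and 7% rising among genes with a symbol. Of 13 immune markers, 5 fell, 2 rose and 6 did not pass, with a median of 0.21. Their sums were 181 and 182 CPM in Control and 234 and 228 CPM in HS1. The 2 that rose carried the rise of the sum, since the 11 other markers together went from 77.9 and 74.5 CPM to 50.8 and 51.3 CPM. *Spn*, or leukosialin, rose from 57.4 and 54.5 CPM to 99.5 and 98.6 CPM, and *Ccdc88b* from 45.8 and 52.5 CPM to 83.8 and 77.8 CPM. The 5 that fell were *Cd200r1* (-2.24), *Mnda* (-2.05), *Arhgdib* (-1.74), *Myo1g* (-1.49) and *Adgre5* (-0.81). The macrophage marker *Lyz2* had 1.29 and 1.16 CPM in Control and 1.41 and 1.42 CPM in HS1, and *Lcp1*, an actin bundler of leukocytes, was under 1 CPM in every Control and HS1 library. Of 6 Schwann cell markers, 4 fell. They were *S100b*, from 15.4 and 13.5 CPM to 2.7 and 2.04 CPM, the scarce *Cadm3* (-2.48), the neuregulin receptor *Erbb3* (-1.66) and *Lgi4* (-1.57). *Ngfr* did not pass (-0.32), and *Gldn*, which encodes gliomedin, rose by 0.53 but not without Control replicate 1 (edgeR adjusted p = 0.0115) or HS1 replicate 2 (edgeR adjusted p = 0.0559).

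Several secreted growth factors and receptors were lower. Among 27 genes for growth factors and their receptors, 16 fell and 2 rose, with a median of -1.17, a share not far above the 50.2% of all genes with a symbol that fell. The counts of signalling, muscle and channel genes that follow have the same background. *Vegfd*, a lymphatic growth factor, fell from 67.7 and 65.7 CPM to 6.31 and 4.87 CPM (-3.57, edgeR adjusted p = 1.40e-16). *Hgf*, which wakes quiescent satellite cells, fell from 10.8 and 9.63 CPM to 1.41 and 1.59 CPM, *Igf1* from 5.31 and 5.47 CPM to 1.91 and 1.33 CPM, and *Fgf10* and *Fgf7* by 2.72 and 1.80. On the receptor side *Mst1r* fell by 3.24, while *Fgfr4*, a receptor of myoblasts, held at 67.7 and 69.6 CPM in Control and 70.1 and 69.6 CPM in HS1 (0.03, edgeR adjusted p = 0.826). *Igf2* rose by 0.40, from 28.8 and 28.3 CPM to 38 and 37.4 CPM, a call lost in the joint fit of all 10 libraries (edgeR adjusted p = 0.285) and without Control replicate 2 (edgeR adjusted p = 0.0141).

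The BMP and TGF-beta genes fell on both sides of the pathway, ligand and antagonist. Of 16, 10 fell and 1 rose (median -1.49). *Bmp2* fell from 22.8 and 23.5 CPM to 11 and 11.5 CPM, the type I receptor *Acvrl1* by 2.61 and the co-receptor *Eng* by 1.52. The extracellular antagonist *Grem1* fell from 266 and 260 CPM to 81.6 and 89.3 CPM, and the inhibitory *Smad6* and the target *Msx1* fell by 1.65 each. *Tgfb2* did not pass (-0.06, edgeR adjusted p = 0.44), and *Fstl3*, a follistatin-like antagonist, rose by 0.62 (edgeR adjusted p = 0.000397). Of 19 Wnt genes, 7 fell and 1 rose, with a median of -0.37. *Wnt5a*, a non-canonical ligand, and its receptor *Ror2* fell by 1.84 and 2.27, as did the pathway inhibitors *Nkd2* (-2.64) and *Dkk2* (-1.93). The Wnt member that rose was *Celsr2*, described below with the other rising genes.

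Genes of cytokine signalling and innate immunity fell in 20 of 29 cases, with 2 rising and a median of -1.69. After *Il1rn*, the largest falls were in *Masp1*, a complement protease, from 11.1 and 11.3 CPM to 0.914 and 0.841 CPM, and in *Ifitm1*, from 8.76 and 9.90 CPM to 1.16 and 0.575 CPM. The alarmin *Il33* fell by 1.95 and its receptor *Il1rl1* by 1.21, the latter from 832 and 799 CPM to 344 and 360 CPM. *Ifitm3* fell by 1.82 and the receptor subunit *Il11ra1* by 1.63. *Cxcl3*, a neutrophil chemokine, rose by 0.50 in the 4-library fit but did not pass in the joint fit of all 10 libraries (edgeR adjusted p = 0.0465) or without Control replicate 1 (edgeR adjusted p = 0.0137).

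Receptors and enzymes of vasoactive peptides, prostanoids and related mediators fell almost throughout, 26 of 28 genes, with 1 rising and a median of -2.03. *Ramp3*, a partner of the calcitonin receptor-like receptor in adrenomedullin sensing, had 19.5 and 22.3 CPM in Control and 1.70 and 2.17 CPM in HS1 (-3.44, standard error 0.17, edgeR adjusted p = 7.44e-13). The bradykinin receptor *Bdkrb2* fell by 2.28, the prostacyclin receptor *Ptgir* by 2.15, the serotonin receptor *Htr2a* by 2.24 and the endothelin receptor *Ednrb* by 1.68. The opioid precursor *Penk* fell from 140 and 139 CPM to 33.8 and 34.6 CPM. *Ptgs1*, or cyclooxygenase-1, changed less, from 477 and 476 CPM to 296 and 303 CPM. The vasopressin precursor *Avp* fell by 2.88, whereas the vasopressin receptor *Avpr1a* rose by 0.45, which did not pass in the joint fit of all 10 libraries (edgeR adjusted p = 0.0189) or without HS1 replicate 1 (edgeR adjusted p = 0.0106).

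Developmental transcription factors were low in abundance and mostly lower in HS1. Of 37, 25 fell and 3 rose, with a median of -1.66. Besides *Twist2* and *Meox2*, the falls included *Sox8* (-2.43), *Casz1* (-2.51), *Ebf1* (-2.13), *Foxc2* (-2.10), *Foxq1* (-1.97) and *Shox2* (-1.78), factors of mesenchymal patterning. Those that rose were *Pax8*, *Sim2* and *Sox11*. *Sim2* went from 28.3 and 29.6 CPM to 45.8 and 41.6 CPM (0.59, edgeR adjusted p = 1.79e-05) and *Sox11* from 26.1 and 23.5 CPM to 35.4 and 36.1 CPM (0.53, edgeR adjusted p = 0.000155). *Cdkn1c*, a cyclin-dependent kinase inhibitor and the only gene of a 24-gene cell cycle list with a symbol, fell by 1.83, a call lost in the joint fit of all 10 libraries (edgeR adjusted p = 0.0794).

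Muscle genes changed less than stromal genes, and their calls depended on the fit. Of 13 myogenic regulators and fusion genes, 8 fell and none rose, with a median of -0.84 and 1 DEG, the Notch ligand *Dll1* (-1.58). *Myog* had 237 and 247 CPM in Control and 118 and 109 CPM in HS1, and *Heyl*, a Notch target, 52.1 and 48.4 CPM against 26.3 and 29.9 CPM. Among 51 genes listed as sarcomere and contractile, 27 fell, 1 rose and 23 did not pass, with a median of -0.57. The 1 that rose was *Cox8b* (1.61), which encodes a cytochrome c oxidase subunit and not a sarcomere protein. The sums of that list were 2435 and 2520 CPM in Control and 1943 and 1743 CPM in HS1. In the joint fit of all 10 libraries, 8 of the 51 fell instead of 27, and 5 of the 13 regulators instead of 8.

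Within the sarcomere the members did not move alike. *Myom3*, of the M-band, *Tmod1*, which caps thin filaments, and *Tnnt1*, the slow troponin T, fell by 1.75, 1.48 and 1.33. The embryonic myosin *Myh3* fell from 314 and 341 CPM to 197 and 167 CPM, and cardiac actin *Actc1* from 375 and 379 CPM to 234 and 196 CPM, but neither passed in the joint fit of all 10 libraries (edgeR adjusted p = 0.109 and 0.111), nor did *Tnnt1* (edgeR adjusted p = 0.0338). Skeletal actin *Acta1* had 309 and 332 CPM in Control and 340 and 299 CPM in HS1, so that its libraries overlapped. The fast light chain *Mylpf* stood at 165 CPM in each Control library and 169 and 167 CPM in HS1 (0.03, edgeR adjusted p = 0.771). *Myh7*, the slow myosin, was at 3.34 and 3.39 CPM in Control and 3.65 and 3.36 CPM in HS1 (0.06, standard error 0.24, edgeR adjusted p = 0.888).

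Channels and carriers split. Of 37, 17 fell and 2 rose, and 18 did not pass (median -0.69). The inward rectifier *Kcnj12* fell from 5.43 and 6.70 CPM to 1.20 and 1.33 CPM, the L-type calcium channel *Cacna1c* by 1.99, the lipid flippase *Atp8b1* by 2.04 and the lactate exporter *Slc16a3* from 35.1 and 39.8 CPM to 11.1 and 12.7 CPM. In the other direction, *Atp2a3*, a calcium pump of the endoplasmic reticulum, rose from 5.71 and 5.55 CPM to 9.84 and 12.4 CPM (0.98, edgeR adjusted p = 0.000114), and *Slc16a7*, a monocarboxylate importer of the same family as *Slc16a3*, from 3.22 and 3.39 CPM to 6.77 and 6.90 CPM (1.05, edgeR adjusted p = 0.000489). The rise of *Slc16a7* did not pass in the joint fit of all 10 libraries (edgeR adjusted p = 0.0117).

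Some genes were at or near 0 in both HS1 libraries. With at most 3 counts in each, 14 of the 284 downregulated DEGs met that condition, 7 of them with a symbol. Such genes passed the expression filter only through their Control counts, so a fall was the only call open to them. *Ppp1r3c*, a glycogen-targeting subunit of protein phosphatase 1, had 54 and 52 counts in Control and 0 and 2 in HS1. *Igfn1* had 28 and 55 counts against 2 and 2, *Ndufa4l2*, a mitochondrial protein induced by hypoxia, 40 and 26 against 2 and 2, and *Gdf10*, a BMP family ligand, 28 and 16 against 0 and 2. *Colgalt2*, a collagen galactosyltransferase, had 20 and 22 counts against 2 and 1, and *Cdh20*, a cadherin, 18 and 18 against 2 and 2. The call was lost for *Colgalt2* and *Cdh20* whichever library was left out, and for *Gdf10* without Control replicate 1 or HS1 replicate 1 (edgeR adjusted p from 0.0112 to 0.066). All 3 calls were also lost with the replicate block (edgeR adjusted p from 0.0106 to 0.0224), those of *Gdf10* and *Colgalt2* with DESeq2 (adjusted p = 0.0128 and 0.0184) and that of *Cdh20* with no filter (edgeR adjusted p = 0.0117). Of the genes without a symbol, ENSRNOG00000008138 had 16 and 20 counts in Control and 0 in both HS1 libraries.

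The upregulated DEGs were scarce transcripts of varied function. All 12 had a mean under 3 log2 CPM, whereas of the 830 genes that rose by any amount 787 were at or above that level. Of the 12 upregulated DEGs, 10 had a symbol, and a further 4 named genes rose by more than 1 log2 unit, out of 37 genes in all that did so (0.284% of those tested). *Kl*, which encodes Klotho, a co-receptor for endocrine fibroblast growth factors, had 6 counts in each Control library and 34 and 36 in HS1 (2.64, standard error 0.54, edgeR adjusted p = 0.000754). *Hook1*, a linker between cargo and microtubule motors, had 14 and 8 counts in Control and 46 and 48 in HS1 (2.20). *Ass1*, argininosuccinate synthase of arginine synthesis, rose from 1.77 and 2.39 CPM to 7.31 and 9.38 CPM (2.0, standard error 0.23, edgeR adjusted p = 5.77e-07). In each of these genes the lower HS1 library was well above the higher Control library.

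*Pax8*, a paired box factor known from thyroid and kidney, rose from 3.30 and 2.81 CPM to 8.97 and 9.25 CPM (1.58, standard error 0.19, edgeR adjusted p = 1.58e-06). *Celsr2*, an atypical cadherin of planar polarity, rose from 3.46 and 2.7 CPM to 9.72 and 9.29 CPM, and *Pou2af1*, a B cell coactivator, from 2.65 and 2.85 CPM to 7.52 and 8.76 CPM. *Micb*, a stress ligand of natural killer cell receptors, and *Galnt13*, which starts O-linked glycans, were the least even, as both were higher in HS1 replicate 1. *Micb* had 8.10 and 5.71 CPM in HS1 against 1.57 and 2.08 CPM in Control, and *Galnt13* 7.89 and 5.71 CPM against 1.89 and 1.93 CPM. *Micb* belongs to a family of similar class I genes, so that its counts may be shared with relatives.

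*Cox8b*, a muscle isoform of a cytochrome c oxidase subunit, rose from 18 and 28 counts to 64 and 65 (1.61), but not without Control replicate 1 (edgeR adjusted p = 0.0206). The same held for *Hook1* without Control replicate 2 (edgeR adjusted p = 0.0134) and for LOC100361898 (1.70) without HS1 replicate 2 (edgeR adjusted p = 0.0101) or in the joint fit of all 10 libraries (edgeR adjusted p = 0.0149). Just under the fold threshold came *Apba2*, a synaptic adaptor (1.49), *Cldn4*, a tight junction claudin (1.43), and *Zdbf2*, an imprinted zinc finger gene (1.37). Among genes without a symbol and with a mean of at least 1 log2 CPM, the largest rises were those of ENSRNOG00000056184 (1.38) and ENSRNOG00000014361 (1.34), and the largest falls those of ENSRNOG00000046309 (-2.7) and ENSRNOG00000056151 (-2.56).

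**Figure D4:**
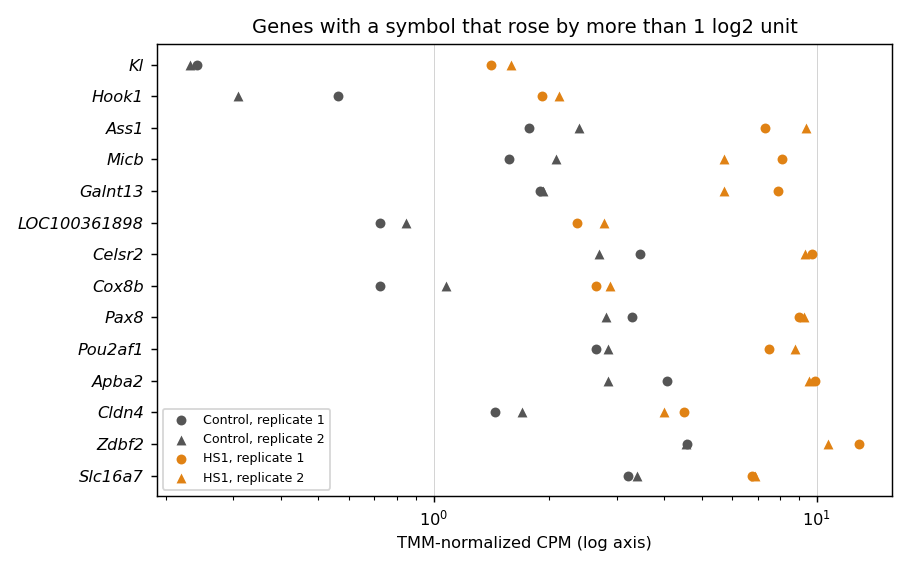
TMM-normalized CPM on a log axis for the 14 genes with a symbol that passed and rose by more than 1 log2 unit, in the order of their change. Grey marks are Control and orange marks HS1, with shape giving the replicate; HS1 lies to the right of Control in every row, and nearly all values are below 10 CPM.

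To see whether these levels belonged to the first day alone, HS1 was set against the mean of HS3, HS7 and HS14 in the 8 suspension libraries, a contrast that shares the HS1 libraries but no Control library with the one above. Of 13543 genes tested, 361 were lower in HS1 (2.67%) and 120 were higher (0.886%) by the same thresholds. In CPM normalized over all 10 libraries, *Col1a1* had 2177 and 2165 in HS1 and rose to 14140 and 18080 at HS3, with 7715 and 7857 at HS7 and 2403 and 2211 at HS14. *Fbn1*, *Thbs4* and *Il1rn* also peaked in HS3 and fell again by HS14. *Col1a1* was 1.6 log2 units lower in HS1 than in the later groups and *Fbn1* 2.05 lower (edgeR adjusted p = 1.38e-10 and 7.28e-14).

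Not every gene that was low in HS1 stood out from the later days. *Fgf10* was at 1.80 and 2.43 CPM in HS1 and 23.7 and 17.7 CPM at HS3, but at 0.567 and 0.632 CPM by HS7 and 1.38 and 2.02 CPM by HS14, and its difference from the later mean did not pass (-0.38, edgeR adjusted p = 0.215). *Ramp3* likewise did not pass (-1.44, edgeR adjusted p = 0.0395), having fallen again to 1.52 and 0.337 CPM in HS14. Its difference ranged from -1.65 to -0.92 when single libraries were left out, and it passed without HS7 replicate 2 (edgeR adjusted p = 0.00771), without HS14 replicate 2 (edgeR adjusted p = 9.25e-05) and with no filter (edgeR adjusted p = 0.000297). *Thy1* passed with a difference of only -0.48. *Myog* stood 1.74 lower in HS1 than in the later groups, at 425 and 388 CPM in HS3 cultures, 882 and 670 CPM at HS7 and 182 and 153 CPM at HS14.

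Several of the rising genes were at their highest in HS1 among all 5 groups. *Pax8* had 8.85 and 9.07 CPM in HS1 and between 0.729 and 1.58 CPM in the 6 later libraries, a difference of 3.03 (standard error 0.24, edgeR adjusted p = 4.12e-09). *Galnt13* had between 0 and 1.35 CPM in the later libraries and LOC100361898 between 0.0398 and 0.316 CPM, differences of 4.28 and 4.17. *Pou2af1* dropped to 0.608 and 0.637 CPM in HS3 and came back to 3.73 and 4.76 CPM in HS14. *Slc16a7*, at 6.67 and 6.77 CPM in HS1, had between 0.445 and 2.08 CPM later (2.66, edgeR adjusted p = 5.87e-08). *Kl* (1.14, edgeR adjusted p = 0.0282), *Zdbf2* (0.47, edgeR adjusted p = 0.0188) and *Cox8b* (-0.13, edgeR adjusted p = 0.752) did not pass. *Kl* passed without HS3 replicate 2 (1.59, edgeR adjusted p = 0.00868). *Zdbf2* passed with the replicate block, with no filter and without HS3 replicate 1 or HS7 replicate 1 (edgeR adjusted p from 0.00244 to 0.00907).

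**Figure D5:**
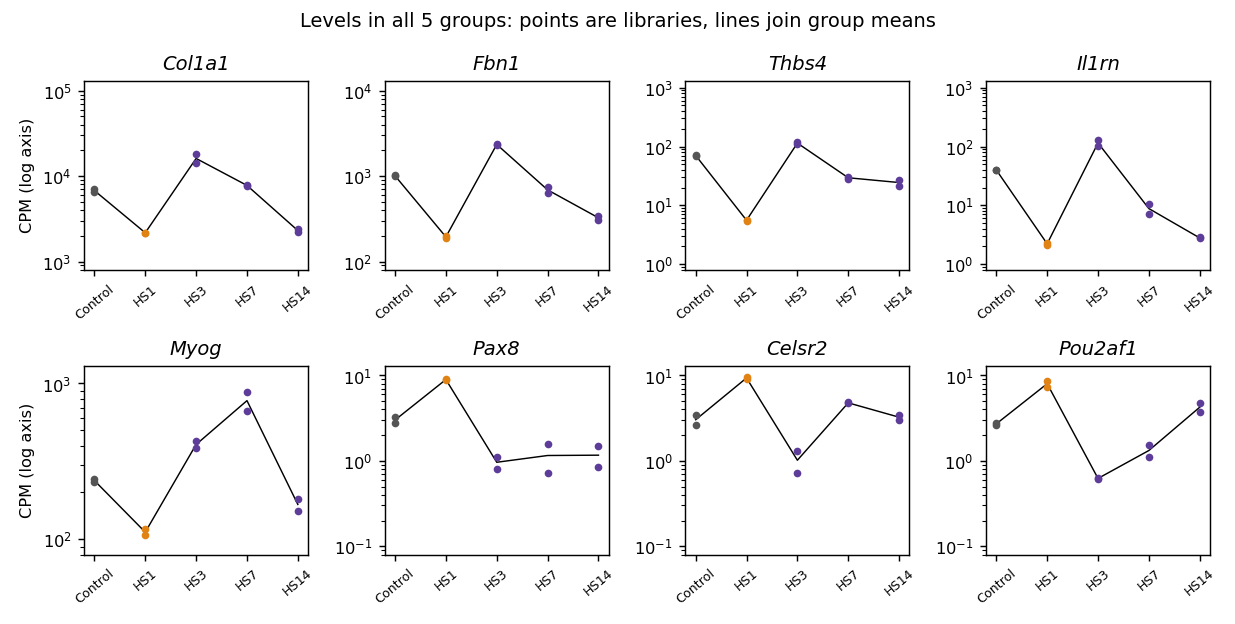
CPM normalized over all 10 libraries on log axes for 8 genes in Control, HS1, HS3, HS7 and HS14; points are libraries and lines join group means. In HS1 the top row and *Myog* sit at or near their lowest level, and *Pax8*, *Celsr2* and *Pou2af1* at their highest.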

How the data were processed

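Myoblast RNA from Control, HS1, HS3, HS7 and HS14 cultures (2 libraries each, grouped by title) was sequenced by the authors from TruSeq Stranded mRNA libraries. The authors mapped reads with STAR and counted them with featureCounts 1.6.4, and deposited raw counts per Ensembl gene without normalization. The study's methods give mRatBN7.2 as the genome, whereas the submitters' processing notes list Rnor_6.0 and STAR 2.7. Strand, pair and multimapping settings are not given in the sources used here, so antisense or overlapping genes and close paralogs are uncertain. Among counts from 1 to 20, between 70.5% and 71.3% were even in the 4 libraries.

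The 4 libraries (22304805 to 26233681 counts) were fitted in edgeR 4.0.16 (limma 3.58.1, R 4.3.3): filterByExpr, TMM, robust quasi-likelihood F-test and Benjamini-Hochberg adjustment over all genes tested. Adjusted p-values named without another tool come from this test. DEGs combined an adjusted p below 0.01 with a change of over 1.5 log2 units. Standard errors are the fold change divided by the square root of F. HS1 was also set against the mean of HS3, HS7 and HS14 in the 8 suspension libraries, with the same thresholds. In simulated data drawn for HS1 against Control over 13013 genes, 200 genes differed by 2.5 log2 units. edgeR recovered 200 of them with 1 false call, and DESeq2 1.42.0 recovered 199 with 0. Recovery of smaller differences, down to the threshold of 1.5 log2 units, was not tested.

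Symbols came from a supplementary list of 817 identifiers, of which 770 had one; its own fold changes were not used. Named were all upregulated DEGs with a symbol and other named genes rising beyond 1; the 10 largest falls at a mean of at least 3 log2 CPM without overlap; the 10 most abundant downregulated DEGs; DEGs with at most 3 counts in each library of a group; in each gene list up to 6 members that changed most at a mean of at least 1 log2 CPM, and members against the trend; the assayed genes Myog, Mymk, Mymx, Myh3 and Myh7; and at most 2 unnamed identifiers per direction. Members that did not pass, and examples beyond these, were chosen after their values were seen. The members and lists were chosen with earlier results of these data known. Alternatives were DESeq2, a replicate block, a fold threshold of 1, halved counts, a joint fit of all 10 libraries, no filter, RLE size factors and leaving out each library. Set tests were not run. Promoters were RefSeq sequences of GRCr8. One gene's result is not reported here.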

Additional observations from a re-analysis of the deposited data

Results flagged for a closer look

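The difference between HS1 and the later suspension groups was tested directly, as HS1 minus the mean of HS3, HS7 and HS14 in 8 libraries, and the values below are log2 differences in that direction. By the thresholds for a DEG, 361 genes were lower in HS1 and 120 were higher. All of them rest on the 2 HS1 libraries that also enter the comparison with Control.

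Of 39 genes named for their change against Control or as assayed genes, 29 differed from the later groups by these thresholds, 20 of them lower in HS1 and 9 higher. In the matrix these were *Thbs4* (-2.96), *Adamtsl3* (-2.77), *Col6a3* (-2.52), *Tgfbi* (-2.48), *Thbs2* (-2.31), *Fbn1* (-2.05), *Lama4* (-1.99), *Mfap5* (-1.87), *Col6a1* (-1.70), *Col6a2* (-1.65), *Bgn* (-1.60) and *Col1a1* (-1.60). Among secreted and membrane proteins they were *Tspan11* (-3.49), *Vegfd* (-3.09), *Il1rn* (-2.66), *Gas1* (-2.45) and *Gpx3* (-1.55). The myogenic genes were *Myog* (-1.74), *Myh3* (-1.82) and *Mymx* (-1.82). *Myh3* lost its call when either HS1, HS3 or HS14 library was left out (edgeR adjusted p from 0.0229 to 0.0677). Of the 20 genes, already called on these same libraries, 18 had both HS1 libraries below all 6 later libraries. The exceptions overlapped HS14, *Myh3* with 194 and 164 CPM in HS1 against 172 and 159 CPM and *Mfap5* with 8.27 and 9.46 CPM against 9.23 and 9.90 CPM. Some of the 18 lay only slightly below HS14, where the level was also far under Control. *Col1a1* had 2177 and 2165 CPM in HS1, 2403 and 2211 CPM in HS14 and 6545 and 7013 CPM in Control. *Il1rn* had 2.13 and 2.30 CPM, 2.84 and 2.74 CPM, and 39.7 and 40.2 CPM in the same order. *Col6a3* was further apart, at 249 and 259 CPM in HS1 and 980 and 792 CPM in HS14.

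The genes that were higher in HS1 than later were *Galnt13* (4.28), LOC100361898 (4.17), *Pax8* (3.03), *Slc16a7* (2.66), *Pou2af1* (2.40), *Micb* (2.29), *Cldn4* (2.12), *Apba2* (2.01) and *Celsr2* (1.91). Each of these genes, already called on these same libraries, had both HS1 libraries above all 6 later libraries. All 9 had been named for their rise against Control, so their standing above both Control libraries follows from that choice.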

How the results depend on the processing

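The counts depended most on the fold threshold. At 1 log2 unit, 37 genes were upregulated and 494 downregulated in HS1 against Control, and 285 were higher and 627 lower in HS1 than in the later groups. Without single libraries, the upregulated DEGs ranged from 14 to 16, the downregulated DEGs from 247 to 282, the genes higher than later from 87 to 131 and those lower than later from 273 to 382. Every other alternative tried (DESeq2, the replicate block, halved counts, a joint fit of all 10 libraries, no filter, RLE size factors) left these 4 counts within 1.5 times. DESeq2 called 240 downregulated and 10 upregulated DEGs, all of them shared with edgeR. The replicate numbers 1 and 2 recur in each group, but nothing states that they mark shared animals, and deviations of same-numbered libraries correlated by -0.0036. The replicate block gave 11 upregulated and 242 downregulated DEGs. Among named genes, changes close to 0 reversed sign when single libraries were left out. *Myh7* ranged from -0.00061 (without HS1 replicate 1) to 0.12, *Lmod1* from -0.11 (without HS1 replicate 2, and -0.084 without Control replicate 2) to 0.21, and *Acta1* from -0.10 to 0.084 (without HS1 replicate 2, and 0.048 without Control replicate 2). Against the later groups *Cox8b* ranged from -0.30 to 0.14 (without HS7 replicate 1). The cause was not tested. The fit of all 10 libraries took its spread from every group, and muscle genes were the calls it lost most, as given above. At these depths, genes under about 1 CPM had wide standard errors (0.93 for *Gdf10*), so small changes in them were not detectable.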

Other observations

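Genes of retinoid handling, grouped after their values were seen and so given without a test of the group, went both ways. *Aldh1a2*, which makes retinoic acid, had 8.32 and 7.32 CPM in Control and 0.831 and 1.15 CPM in HS1 (-2.98), and the binding protein *Crabp1* 5.95 and 5.35 CPM against 0.664 and 0.929 CPM (-2.82). *Cyp26b1*, which breaks retinoic acid down, fell by 1.23 from 72.1 and 75.2 CPM. The dehydrogenase *Dhrs9* rose, from 25.6 and 27.5 CPM in Control to 37.2 and 32.5 CPM in HS1. Of the 7 such genes grouped here, 3 fell and 1 rose, while *Rarres1* (-1.09), *Rxrg* (-0.22) and *Aldh1a1* (0.86) did not pass. Among all genes with a symbol, 50.2% fell and 7% rose.

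Adhesion receptors, also grouped afterwards, were likewise divided. Of 13 integrin and cadherin family genes tested, 9 fell and 2 rose, against 50.2% and 7% of all genes with a symbol. *Itgb3* fell from 12.6 and 12.7 CPM to 2.99 and 2.26 CPM, and *Itga8* and *Itga9* by 1.59 and 1.66. *Itga3*, a laminin receptor subunit, rose from 481 CPM in each Control library to 760 and 680 CPM (0.58, edgeR adjusted p = 1.44e-08), and *Cdh3*, or P-cadherin, from 25.8 and 26.6 CPM to 35.1 and 40.2 CPM. The dioxin-responsive *Cyp1b1* fell from 367 and 343 CPM to 78.4 and 91.6 CPM and *Cyp1a1* from 12.5 and 11.4 CPM to 3.07 and 4.87 CPM. They belong to 7 genes for handling foreign compounds, also grouped afterwards, of which 4 fell and 0 rose. That is close to the 50.2% and 7% of all genes with a symbol. *Akr1c3* (-0.63), *Gsta6* (-0.48) and *Gsta2* (0.47) did not pass.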
